A study of Mus musculus with 20 samples.

Results

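Bile duct epithelium and the progenitor-like cells that appear beside it in injured liver were followed through 10 genes: Krt7, Krt8, Krt18, Krt19, Krt23, Sox9, Spp1, Prom1, Cd24a and Epcam. They were taken by gene name from the array annotation, where Epcam stood under its older name Tacstd1, and 15 probes for the 10 genes were found among 27573 named genes. Liver RNA came from 20 male mice aged 28 weeks on a mixed Sv129/C57Bl6J background, in 4 groups of 5. These were LXR alpha/beta double knockout mice (LXRko) on a Western diet for 7 weeks, LXRko mice on normal chow, wild-type mice (WT) on the same Western diet and WT mice on normal chow. LXR alpha and beta, encoded by Nr1h3 and Nr1h2, are nuclear receptors that sense oxidised cholesterol, and the labels name no tissue to which the deletion was limited. Each mouse gave 1 piece of the large lobe and 1 single-colour array, so every value is an average over all cells of that piece, and more cells of a type cannot be told apart from more RNA per cell.

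Keratins form filaments from pairs of a type I and a type II chain. Hepatocytes carry the pair Krt8 and Krt18, while the epithelium of the bile ducts adds Krt7 and Krt19, and these 2 are used to find ducts in liver sections. In long-standing liver injury small duct-like strings of cells spread from the portal tracts, a process called the ductular reaction, and cells with duct genes such as Sox9, Epcam, Prom1, Cd24a and Spp1 are known there. Several are not made by duct cells alone: Spp1 is also a macrophage product, and hepatocytes under stress are known to switch on Sox9 and Krt23.

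Levels are given as relative signal, the background-corrected intensity of a probe divided by the 75th percentile of its array, and differences as log2 of that value ± SE from a limma fit over 17552 genes on all 20 arrays. A gene rose or fell where the p adjusted by Benjamini-Hochberg over all genes of the comparison was under 0.05. The 75th percentile lay between 339.7 and 435.1 intensity units on the LXRko Western-diet arrays and between 170.3 and 330.8 on the other arrays, and 53.6% to 67.12% of probes were well above background. Nr1h3 fell by 9.00 and Nr1h2 fell by 5.43 in LXRko livers on Western diet. On normal diet Nr1h3 fell by 9.05 and Nr1h2 fell by 5.39. All 13 hepatocyte genes on the array, such as Alb and Ttr, were well above background on every array. Of the 10 genes, 9 were well above background on all 20 arrays and Prom1 on 12, and all 10 passed the filter on dim probes. Prom1 passed it only through the Western-diet groups, so the filter favoured a higher level of Prom1 on that diet. WT mouse 2 on Western diet stood apart from the other 4 of its group in Spp1 and Epcam and was the highest of its group in Krt8. Several results are given with and without it.

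On Western diet, LXRko livers had higher levels of 8 of the 10 genes than WT livers and a lower level of 1, Krt23. Of all 17545 genes tested there, 25% rose and 32.7% fell. The median difference of the 10 genes was 2.19, against -0.16 over all genes. In 6 of the 10 genes every LXRko mouse lay above every WT mouse, which 19.3% of all genes also did. The prominent members were the surface proteins Prom1 and Cd24a and the duct keratins Krt7 and Krt19. Leaving out WT mouse 2 gave the same counts of 8 and 1.

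**Figure D1:**
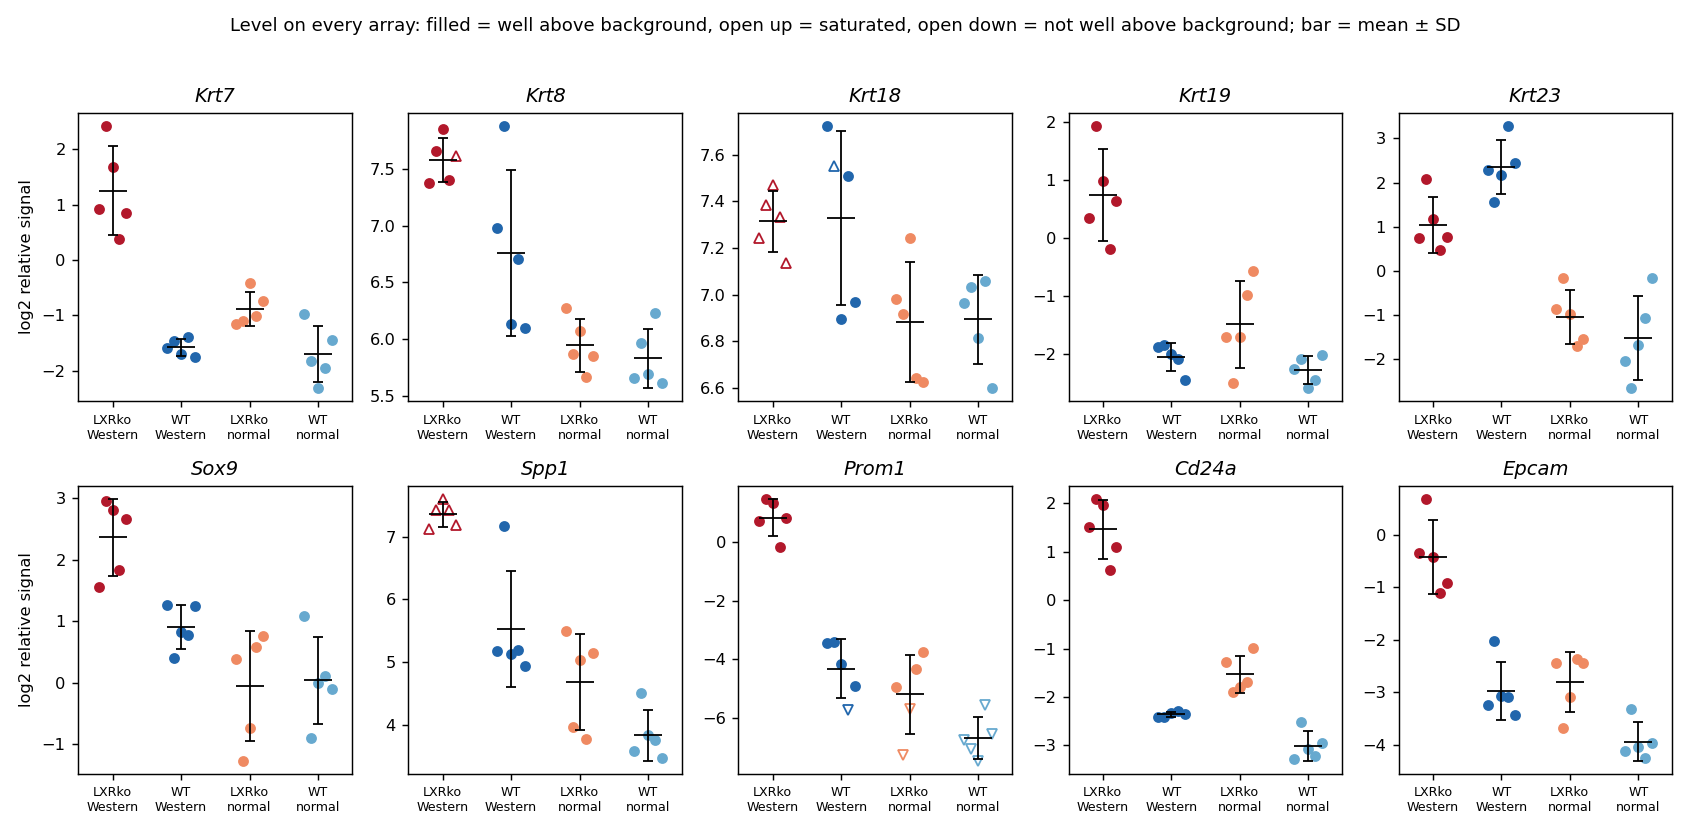
Log2 relative signal of each gene (vertical axis) on each of the 20 arrays, by group (horizontal axis), with the mean and SD of 5 mice as a bar. Filled points were well above background, open upward triangles were saturated and give the ceiling of the scanner, and open downward triangles were not well above background. LXRko mice on Western diet lie above all others in Krt7, Krt19, Sox9, Prom1, Cd24a and Epcam, while the highest levels of Krt23 are in WT mice on Western diet.

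Krt7 and Krt19, the type II and the type I keratin that mark duct epithelium, were both raised in LXRko livers on Western diet. The main Krt7 probe lay at chr15:101255775-101255834 on the plus strand (mm8). Krt7 had a relative signal of 1.89, 5.34, 3.21, 1.31 and 1.79 in LXRko mice 1 to 5 on Western diet, against 0.333, 0.362, 0.309, 0.382 and 0.297 in WT mice. Normal-diet levels were 0.447, 0.463, 0.749, 0.498 and 0.596 in LXRko mice, against 0.507, 0.284, 0.201, 0.259 and 0.365 in WT mice. The LXRko mice on Western diet were thus the highest of the 20 without overlap, with a spread of their own from 1.31 to 5.34, while the other 3 groups lay under 1. Krt7 averaged 2.71 ± 1.63 in LXRko mice and 0.337 ± 0.0357 in WT mice on Western diet (SD, n = 5 each). The genotype difference on Western diet was 2.83 ± 0.30 (7.09-fold, adjusted p = 3.4e-07), and 1.99 with normexp, another background correction. A dimmer Krt7 probe, at chr15:101251321-101251380, gave 2.23 ± 0.23 (adjusted p = 1.78e-07).

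Krt19, whose probe lay at chr11:99957168-99957227 on the minus strand (mm8), followed the same order of groups. Its relative signal was 1.27, 3.83, 1.98, 0.882 and 1.55 in LXRko mice on Western diet and 0.271, 0.278, 0.252, 0.236 and 0.184 in WT mice. Normal diet gave 0.308, 0.176, 0.306, 0.508 and 0.679 in LXRko mice and 0.21, 0.236, 0.167, 0.184 and 0.249 in WT mice. No LXRko mouse on Western diet overlapped any other mouse, and 4 of 5 LXRko mice on normal diet lay above every WT mouse. Krt19 averaged 1.9 ± 1.15 in LXRko mice and 0.244 ± 0.0374 in WT mice on Western diet (SD, n = 5 each). The genotype difference on Western diet was 2.79 ± 0.34 (6.93-fold, adjusted p = 1.66e-06), and 1.65 with normexp.

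Krt8 and Krt18, the keratin pair of hepatocytes, were bright in all groups and met the ceiling of the scanner in LXRko livers on Western diet. Krt8 (chr15:101824817-101824876, minus strand, mm8) had 167, 202, 231, 169 and 196 in LXRko mice on Western diet, against 126, 236, 70.4, 104 and 68.4 in WT mice. It had 77.5, 58.4, 67.1, 50.6 and 57.7 in LXRko mice on normal diet, against 50.4, 62.4, 51.8, 75 and 48.9 in WT mice. WT mouse 2 on Western diet, at 236, lay above the 4 LXRko mice with an unsaturated signal, so the genotypes overlapped on Western diet. Krt8 rose by 0.82 ± 0.25 in LXRko livers on that diet (1.77-fold, adjusted p = 0.0097), by 1.10 without WT mouse 2 (adjusted p = 9.19e-05), and by 0.72 with median scaling, where the call was lost (adjusted p = 0.0625). The array of LXRko mouse 5 was saturated, so its 196 is a lower bound, and a nearby probe of Krt8 was saturated on all 5 LXRko arrays and gives no size.

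Krt18 (chr15:101859944-101860003, mm8) was saturated on all 5 LXRko arrays on Western diet, where its values of 152, 167, 177, 161 and 141 have no order. In WT mice on that diet it had 211, 188, 119, 182 and 125, with 1 array saturated. Its normal-diet values were 126, 121, 151, 100.0 and 98.6 in LXRko mice and 125, 131, 112, 133 and 97 in WT mice, and these groups overlapped throughout. The measured genotype difference on Western diet was -0.02 ± 0.16 (adjusted p = 0.94). Its sign turned with the scaling, to 0.41 with quantile normalization (adjusted p = 0.0209) and 0.36 with the authors' series matrix (adjusted p = 0.0444), so that no direction can be given for Krt18 between the genotypes on that diet.

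Krt23, a type I keratin known to be induced in stressed liver, was the exception among the 10. Its relative signal was 1.67, 4.26, 2.25, 1.38 and 1.69 in LXRko mice on Western diet, against 4.91, 2.95, 4.54, 9.71 and 5.41 in WT mice. On normal diet it was 0.549, 0.893, 0.505, 0.305 and 0.342 in LXRko mice and 0.241, 0.159, 0.31, 0.473 and 0.896 in WT mice. Both Western-diet groups lay above both normal-diet groups, and 4 of 5 WT mice lay above all LXRko mice. Krt23 averaged 2.25 ± 1.17 in LXRko mice and 5.5 ± 2.53 in WT mice on Western diet (SD, n = 5 each). Krt23 was lower in LXRko than in WT livers on Western diet by 1.31 on the log2 scale (-1.31 ± 0.43, adjusted p = 0.0146), which is 2.47-fold lower. The difference was negative within 4 of 4 slides shared by the genotypes, from -2.52 to -0.39, and between -1.57 and -1.07 with any 1 array left out. Its probe lay at chr11:99294169-99294228 on the minus strand (mm8).

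**Figure D2:**
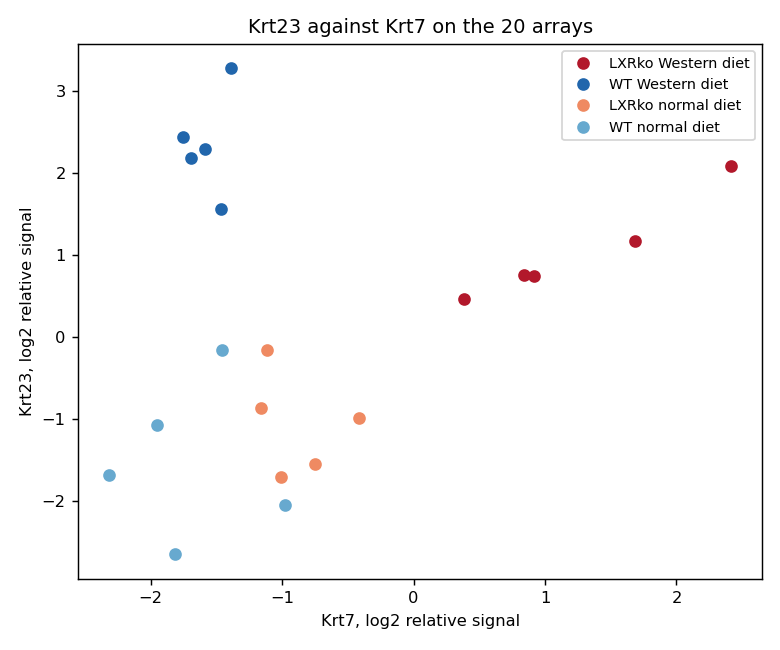
Log2 relative signal of Krt23 (vertical axis) against that of Krt7 (horizontal axis), 1 point per array, coloured by group. WT mice on Western diet have the higher Krt23 with Krt7 at 0.297 to 0.382 relative signal, and LXRko mice on Western diet have Krt7 at 1.31 to 5.34 with Krt23 at 1.38 to 4.26.

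The stretches before the annotated starts of Prom1, Krt7 and Krt23 are printed because these genes show the largest genotype difference on Western diet among the 10, the duct keratin response, and the opposite direction. Each is 250 bases long, read 5′ to 3′ on the strand of the gene and taken from RefSeq on GRCm38.p6, with capitals at matches to 4 short motifs on either strand. The motifs were TGANTCA (AP-1), GGAATG (TEAD, the partner of YAP), TGGGAA (RBPJ, the DNA-binding partner of Notch) and the repeat bound by LXR (AGGTCA, a gap of 4 bases, AGGTCA). For Prom1 the upstream of its 2 annotated starts is shown, and Krt7 and Krt23 hold no match to any of the 4.
Prom1, chr5:44101737-44101986, minus strand: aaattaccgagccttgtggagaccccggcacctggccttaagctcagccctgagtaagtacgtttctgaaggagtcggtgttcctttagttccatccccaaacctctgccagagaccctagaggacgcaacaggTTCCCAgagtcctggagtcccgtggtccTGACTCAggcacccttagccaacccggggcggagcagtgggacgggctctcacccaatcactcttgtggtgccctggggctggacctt
Krt7, chr15:101412153-101412402, plus strand: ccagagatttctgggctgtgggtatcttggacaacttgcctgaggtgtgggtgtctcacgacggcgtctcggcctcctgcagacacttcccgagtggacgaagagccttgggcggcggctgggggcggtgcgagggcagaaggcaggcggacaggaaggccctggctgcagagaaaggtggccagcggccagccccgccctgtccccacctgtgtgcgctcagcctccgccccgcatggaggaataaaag
Krt23, chr11:99493121-99493370, minus strand: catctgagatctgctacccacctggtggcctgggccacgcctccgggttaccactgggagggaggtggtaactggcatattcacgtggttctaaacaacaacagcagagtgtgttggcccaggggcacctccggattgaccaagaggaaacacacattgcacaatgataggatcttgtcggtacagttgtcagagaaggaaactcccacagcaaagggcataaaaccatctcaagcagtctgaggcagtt

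Promoter sequence was at hand for 7 of the 10 genes, with 9 starts. TGANTCA was found before 2 of these starts, both of Prom1, and in 6.75% of 32851 mouse promoters of the same length. TGGGAA was found before 2, of Krt8 and Prom1, and in 21.6% of all. GGAATG was found before none (12.6% of all), and the LXR repeat before none (0.0152% of all). A match describes letters only, and a missing match says only that these letters are not in these 250 bases.

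Sox9, a transcription factor of duct epithelium and its precursors, was raised in LXRko livers on Western diet. Its relative signal was 2.96, 7.75, 7.04, 3.58 and 6.38 in LXRko mice on Western diet and 2.42, 1.32, 1.77, 1.72 and 2.37 in WT mice. Normal-diet values were 1.31, 0.416, 0.604, 1.49 and 1.69 in LXRko mice and 2.13, 0.536, 1, 1.08 and 0.935 in WT mice. Sox9 averaged 5.54 ± 2.14 in LXRko mice and 1.92 ± 0.466 in WT mice on Western diet (SD, n = 5 each). The genotypes did not overlap on Western diet, where the difference was 1.46 ± 0.40 (2.76-fold, adjusted p = 0.00458), and overlapped throughout on normal diet. The main probe lay at chr11:112601784-112601843 (mm8). Of its 2 other probes, 1 gave 1.48 ± 0.46 (adjusted p = 0.00986), and the other, well above background on 5 LXRko and 2 WT arrays, gave 1.17 ± 0.42 (adjusted p = 0.0218).

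Spp1 encodes osteopontin, a secreted ligand of integrins and Cd44, and was at the ceiling of the scanner on all 5 LXRko arrays on Western diet. Its probe (chr5:104681071-104681130, mm8) had 140.2, 172, 195, 173 and 146 there, against 36, 144, 35.1, 36.8 and 30.6 in WT mice. On normal diet it had 45.2, 15.6, 32.6, 13.7 and 35.3 in LXRko mice and 12, 22.7, 14.3, 13.5 and 11 in WT mice. WT mouse 2 on Western diet reached 144, about the level at which the LXRko arrays saturated, while the other 4 WT mice lay between 30.6 and 36.8. Spp1 was at least 3.57-fold higher in LXRko than in WT livers on Western diet (adjusted p = 0.000494), a bound taken from the saturated values. Without WT mouse 2 the measured difference was 2.25 in place of 1.84 (adjusted p = 5.79e-06).

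Prom1, Cd24a and Epcam encode surface proteins: Prom1 (CD133) sits on membrane protrusions, Cd24a is a small glycoprotein anchored in the membrane, and Epcam joins neighbouring epithelial cells. Prom1 had 1.61, 2.71, 2.49, 0.889 and 1.75 in LXRko mice on Western diet, against 0.0929, 0.0954, 0.0559, 0.0189 and 0.0335 in WT mice, of which 4 were well above background. On normal diet it had 0.0331, 0.00658, 0.0195, 0.05 and 0.0737 in LXRko mice, with 3 well above background, and 0.0093, 0.0076, 0.00579, 0.0215 and 0.0109 in WT mice, with none well above it. The lowest LXRko mouse on Western diet had 0.889, above the highest of the other 15 mice, at 0.0954. Prom1 averaged 1.89 ± 0.729 in LXRko mice and 0.0593 ± 0.0344 in WT mice on Western diet (SD, n = 5 each). The genotype difference on Western diet was 5.14 ± 0.58 (35.2-fold, adjusted p = 5.46e-07), and 4.46 ± 0.43 on its other probe. With normexp it was 2.39 (adjusted p = 0.000318). The main probe lay at chr5:44282340-44282399 on the minus strand (mm8).

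Cd24a (chr10:43272315-43272374, mm8) had 2.87, 4.28, 3.93, 1.55 and 2.14 in LXRko mice on Western diet, against 0.188, 0.188, 0.199, 0.204 and 0.197 in WT mice. Its levels on normal diet were 0.413, 0.271, 0.289, 0.308 and 0.503 in LXRko mice, against 0.102, 0.174, 0.119, 0.107 and 0.129 in WT mice. The WT Western-diet values lay close together, and on both diets every LXRko mouse was above every WT mouse. Cd24a averaged 2.95 ± 1.16 in LXRko mice and 0.195 ± 0.00685 in WT mice on Western diet (SD, n = 5 each). The genotype difference on Western diet was 3.82 ± 0.24 (14.1-fold, adjusted p = 5.21e-10), and 2.51 with normexp.

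Epcam (chr17:87557958-87558786, mm8) had 0.779, 1.6, 0.748, 0.461 and 0.528 in LXRko mice on Western diet, against 0.105, 0.247, 0.12, 0.117 and 0.0921 in WT mice. Epcam on normal diet had 0.184, 0.0779, 0.117, 0.193 and 0.184 in LXRko mice, against 0.0576, 0.101, 0.0604, 0.0527 and 0.0644 in WT mice. No LXRko mouse on Western diet overlapped another group, and WT mouse 2 on Western diet was above the other 4 of its group. Epcam averaged 0.824 ± 0.456 in LXRko mice and 0.136 ± 0.0628 in WT mice on Western diet (SD, n = 5 each). The genotype difference on Western diet was 2.54 ± 0.34 (5.83-fold, adjusted p = 3.95e-06), and 2.78 without that mouse. With normexp it was 1.13 (adjusted p = 0.0253).

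On normal diet, 2 of the 10 genes rose in LXRko livers and 0 fell, Cd24a by 1.48 ± 0.24 (2.8-fold, adjusted p = 0.000238) and Epcam by 1.13 ± 0.34 (2.19-fold, adjusted p = 0.0237). Of all genes, 11.3% rose and 8.38% fell in this comparison. The median difference of the 10 was 0.80, against -0.06 over all genes, and 1 of 10 did not overlap between the genotypes, against 8.16% of all genes. Krt7 (0.81 ± 0.30, adjusted p = 0.0682), Krt19 (0.78 ± 0.34, adjusted p = 0.12) and Spp1 (0.85 ± 0.38, adjusted p = 0.133) did not pass. Spp1 passed at the same difference (adjusted p = 0.0407) without WT Western-diet mouse 2, which enters only the shared estimate of spread here. Prom1 did not pass on its main probe (adjusted p = 0.0814) and passed on the other (adjusted p = 0.0108), but neither probe was well above background on any WT array, so no size is given. Krt8, Krt18, Krt23 and Sox9 had differences between -0.09 and 0.47. The call of Epcam was lost under 4 of 11 alternatives and that of Cd24a under 1, normexp, where the 2 differences were 0.33 and 0.63. Without LXRko normal-diet mouse 1 or 5, or WT normal-diet mouse 4, 1 of the 10 rose, and without LXRko normal-diet mouse 2 there were 4.

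Within LXRko livers, Western against normal diet raised all 10 genes, in a comparison where 22.6% of all genes rose and 27.8% fell. Prom1 is counted among them although it passed the filter on dim probes only through the Western-diet groups. The median difference of the 10 was 2.31, against -0.12 over all genes, and 9 of 10 did not overlap between the diets, against 16.3% of all genes. Prom1 rose by 6.0 ± 0.58 (64-fold, 5.38 when dim signals were set to the array's floor and 2.37 with normexp), Cd24a by 2.99 ± 0.24 (7.96-fold) and Sox9 by 2.42 ± 0.40 (5.37-fold). Epcam, Krt19, Krt7 and Krt23 rose by 2.38, 2.23, 2.14 and 2.10, and Krt8 by 1.64. With normexp Epcam was at 0.93 and lost its call (adjusted p = 0.0748). Spp1 was at least 6.4-fold higher on Western diet (adjusted p = 1.43e-05). Krt18 was at least 1.35-fold higher (adjusted p = 0.0324), a call lost without LXRko Western-diet mouse 2, 3 or 4 or without LXRko normal-diet mouse 4 or 5. That call was also lost under 2 of 11 alternatives, with an adjusted p of up to 0.117.

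Within WT livers, Western diet raised 4 of the 10 genes, Krt8, Krt23, Spp1 and Prom1, and lowered 0, in a comparison where 3.25% of all genes rose and 2.71% fell. The median difference of the 10 was 0.90, against -0.03 over all genes. Without WT Western-diet mouse 1 or 2, or WT normal-diet mouse 2 or 3, 2 of the 10 rose. Krt23 rose by 3.88 ± 0.43 (14.7-fold, adjusted p = 2.5e-05), and each WT mouse on Western diet was above every WT mouse on normal diet. Spp1 rose by 1.69 ± 0.38 (adjusted p = 0.0119), by 1.28 without WT mouse 2 (adjusted p = 0.0196), and by 1.6 with normexp, where the call was lost (adjusted p = 0.0534). Krt8 rose by 0.93 ± 0.25 (adjusted p = 0.0361), but by 0.65 without that mouse (adjusted p = 0.0677), and the call was lost when 1 of 7 arrays was left out and under 4 of 11 alternatives. Prom1 was at least 1.39-fold higher (adjusted p = 0.0205), since no WT array on normal diet was well above background. Prom1 passed the filter on dim probes only through the Western-diet groups, so its place among the 4 is not free of that filter. Its difference of 2.33 became 0.63 with dim values raised to the floor (adjusted p = 0.318). Without WT Western-diet mouse 2 it was 2.10, where the call was lost (adjusted p = 0.0653). Krt7 and Krt19, the duct keratins, differed by 0.13 ± 0.30 (adjusted p = 0.857) and 0.22 ± 0.34 (adjusted p = 0.757) between the diets. Cd24a differed by 0.65 ± 0.24 (adjusted p = 0.123), with every Western-diet mouse above every normal-diet mouse.

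**Figure D3:**
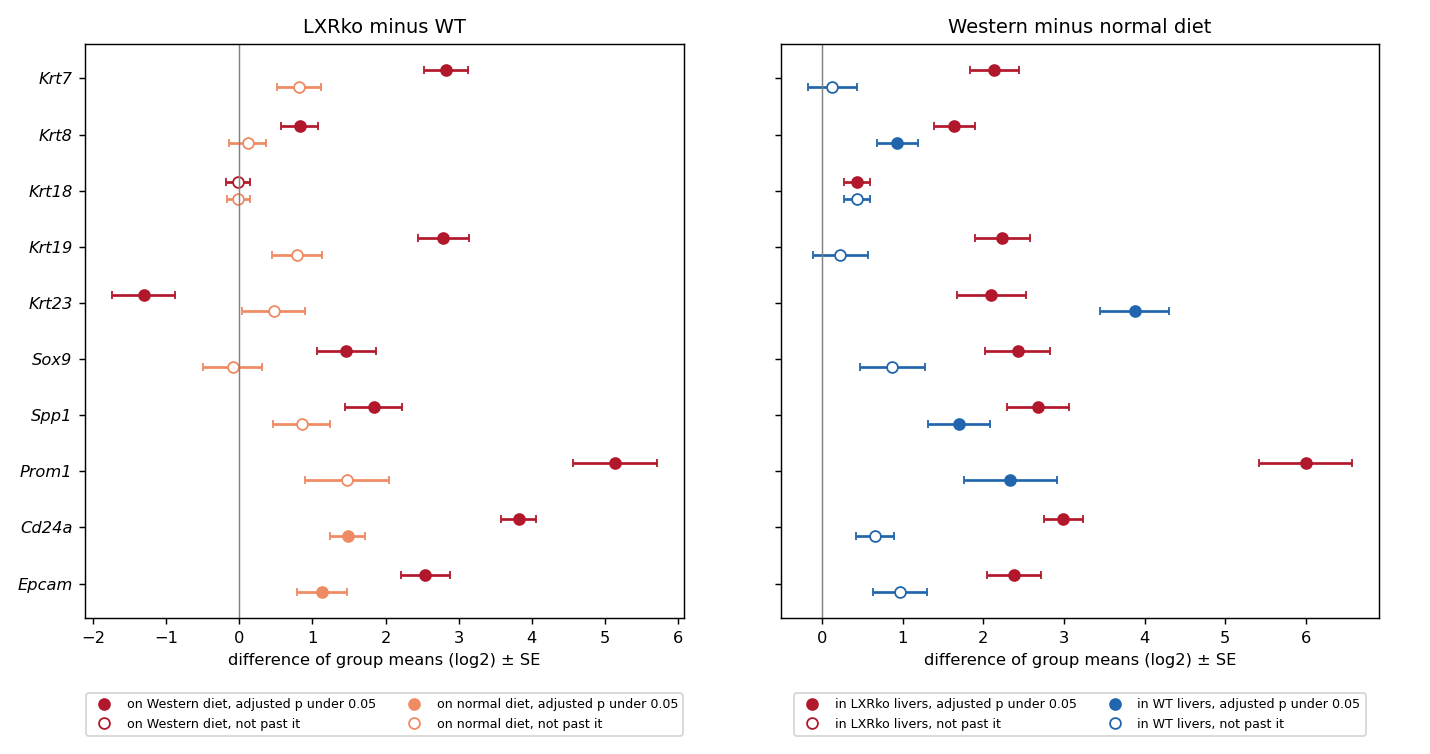
Differences of group means on the log2 scale ± SE (horizontal axis) for each gene (vertical axis), LXRko minus WT on each diet at left and Western minus normal diet in each genotype at right. Filled points had an adjusted p under 0.05. Krt23 is the single gene left of 0 by more than its SE in the left panel, at -1.31, and the gene with the largest WT diet difference in the right panel, at 3.88.

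The diet difference itself was set against genotype by the interaction, the diet difference in LXRko minus that in WT livers. It was positive for 6 of the 10 genes and negative for 1, while 12.9% of all genes were called positive and 14.7% negative. Prom1 had 3.66 ± 0.82 (adjusted p = 0.0026), Cd24a 2.34 ± 0.34 (adjusted p = 6.77e-05), Krt7 2.01 ± 0.43 (adjusted p = 0.00197) and Krt19 2.01 ± 0.49 (adjusted p = 0.00475). The value for Prom1 rests on WT normal-diet arrays at background, and Krt19 lost its call with normexp, at 1.26 (adjusted p = 0.13). Sox9 had 1.56 ± 0.57 (adjusted p = 0.0496) and Epcam 1.41 ± 0.48 (adjusted p = 0.0335), and each of these 2 lost its call under 5 of 10 alternatives. With 1 array left out in turn, the call was lost in 14 of 20 cases for Sox9 and 9 of 20 for Epcam. Krt23 ran the other way, with -1.78 ± 0.61 (adjusted p = 0.0363), so its response to Western diet was 3.43-fold smaller in LXRko than in WT livers. That call was lost under 4 of 10 alternatives and with 12 of 20 arrays left out in turn, although the value stayed between -2.12 and -1.50 with any 1 array left out. Krt8, Krt18 and Spp1 did not pass, and Krt18 and Spp1 were at the ceiling in LXRko livers on Western diet. Without WT Western-diet mouse 2, Krt8 passed at 0.99 (adjusted p = 0.00905) and Spp1 at 1.40 (adjusted p = 0.0165). Sox9 then lost its call, at 1.43 (adjusted p = 0.0835).

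Genes known beside these 10 in duct epithelium moved in part the same way. Of 33 other biliary genes on the array, 29 were tested, and 16 rose and 5 fell in LXRko livers on Western diet, with a median of 1.45. Of these 29, 5 (Ehf, Elf3, Cftr, Cldn4 and Itgb6) passed the filter on dim probes only through the LXRko Western-diet group and so had to be higher there. Among the other 24 there were 12 that rose. For this list and those below, the shares over all genes between genotypes were 25% higher and 32.7% lower on Western diet. On normal diet they were 11.3% and 8.38%. Lcn2, a secreted protein of injured epithelium and neutrophils that binds iron carriers, rose by 7.84 ± 1.17, and Ddr1, a collagen receptor of epithelia, rose by 4.74 ± 0.24. Ehf, an epithelial transcription factor, was at least 11.6-fold higher, and its relative Elf3 rose by 4.36 ± 0.62, with 2 of 5 WT arrays well above background. Cftr, the chloride channel of duct epithelium, was not well above background in any WT mouse on either diet and was at least 6.38-fold higher in LXRko livers on Western diet. Sctr, the secretin receptor of duct cells, was not well above background in any group. The summed relative signal of the list lay between 99.5 and 159 in LXRko mice on Western diet, against 51.8 to 63.8 in WT mice. On normal diet 6 of 29 rose and 4 fell, with Anxa13 at 3.24 ± 0.27 and Tff3, a mucosal peptide, at -2.38 ± 0.60. One of the 6, Cftr, was not well above background on any array of that diet, so it has no measured level there.

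Fetal and progenitor-associated genes had 9 of 13 tested higher and 0 lower in LXRko livers on Western diet. Cd44, a receptor of hyaluronan and osteopontin, rose by 3.55 ± 0.36, Itga6, a laminin receptor chain, by 3.44 ± 0.24, the imprinted RNA H19 by 2.96 ± 0.65 and Gpc3, a fetal surface proteoglycan, by 2.55 ± 0.33. Afp, the fetal serum protein, was among the 6 of 13 that rose in LXRko livers on normal diet, at 1.38 ± 0.27. So was Dlk1, a hepatoblast surface protein, at 3.5 ± 0.63, with 1 of 5 WT arrays well above background. Dlk1 passed the filter on dim probes only through LXRko mice on normal diet and so had to be higher there. On Western diet Dlk1 was not called between the genotypes (0.90 ± 0.63, adjusted p = 0.229). Lgr5, a receptor that strengthens Wnt signals, fell on Western diet in both genotypes, at -1.59 ± 0.36 in WT livers and -1.63 ± 0.36 in LXRko livers.

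Among receptors of osteopontin, the product of Spp1, 8 of 9 were higher and 0 lower in LXRko livers on Western diet. These included Cd44, given above, the integrin chain Itga4, shared with white blood cells, at 3.22 ± 0.37, and Itga8 at 1.6 ± 0.21 and Itgav at 0.92 ± 0.13. On normal diet 3 of 9 rose, with Itga4 at 3.01 ± 0.37.

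Signals known to drive duct growth were mixed. In the Notch pathway 6 of 13 genes rose and 1 fell in LXRko livers on Western diet, with the modifier Lfng at 2.18 ± 0.23, the ligand Jag1 at 1.61 ± 0.19, the DNA-binding partner Rbpj at 1.35 ± 0.17 and the ligand Dll1 at 1.13 ± 0.20. Among Hippo and YAP genes 9 of 13 rose and 1 fell, with the YAP targets Ankrd1 at 3.39 ± 0.40 and Ccn2 at 2.94 ± 0.26, and the DNA-binding partner Tead1 at 3.12 ± 0.22. Tead4, which passed the filter only through LXRko mice on Western diet, was at least 1.54-fold higher, and 8 of 12 rose without it. Among ductular growth signals 5 of 11 rose and 2 fell, with Tgfb2 at least 12.9-fold higher, the TWEAK receptor Tnfrsf12a at 2.76 ± 0.23, Tgfb1 at 2.45 ± 0.22 and the receptor Egfr at -1.77 ± 0.30. On normal diet these 3 lists had 2 of 13, 4 of 13 and 1 of 11 higher, with none lower. Over all genes 11.3% rose and 8.38% fell there, so the counts for Notch and for growth signals were near that share. In WT livers Western diet changed 1 gene up in Notch (Hes1, 1.21 ± 0.34), 1 down in Hippo (Wwtr1, -0.72 ± 0.16) and 1 up among growth signals (Fgfr2, 1.12 ± 0.27). Of all genes, 3.25% rose and 2.71% fell in that comparison.

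Partners of the keratin filaments had 6 of 11 tested genes higher and 1 lower in LXRko livers on Western diet, or 5 of 10 higher without Krt20. Vim, the intermediate filament of mesenchymal cells, rose by 4.72 ± 0.22, and Krt20, a type I keratin of simple epithelia, was at least 6.18-fold higher and also passed the filter only through that group. The linker proteins Evpl and Ppl rose by 1.36 ± 0.31 and 1.13 ± 0.23. Ppl also rose in LXRko livers on normal diet (1.73 ± 0.23) and in WT livers on Western diet (1.98 ± 0.23).

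**Figure D4:**
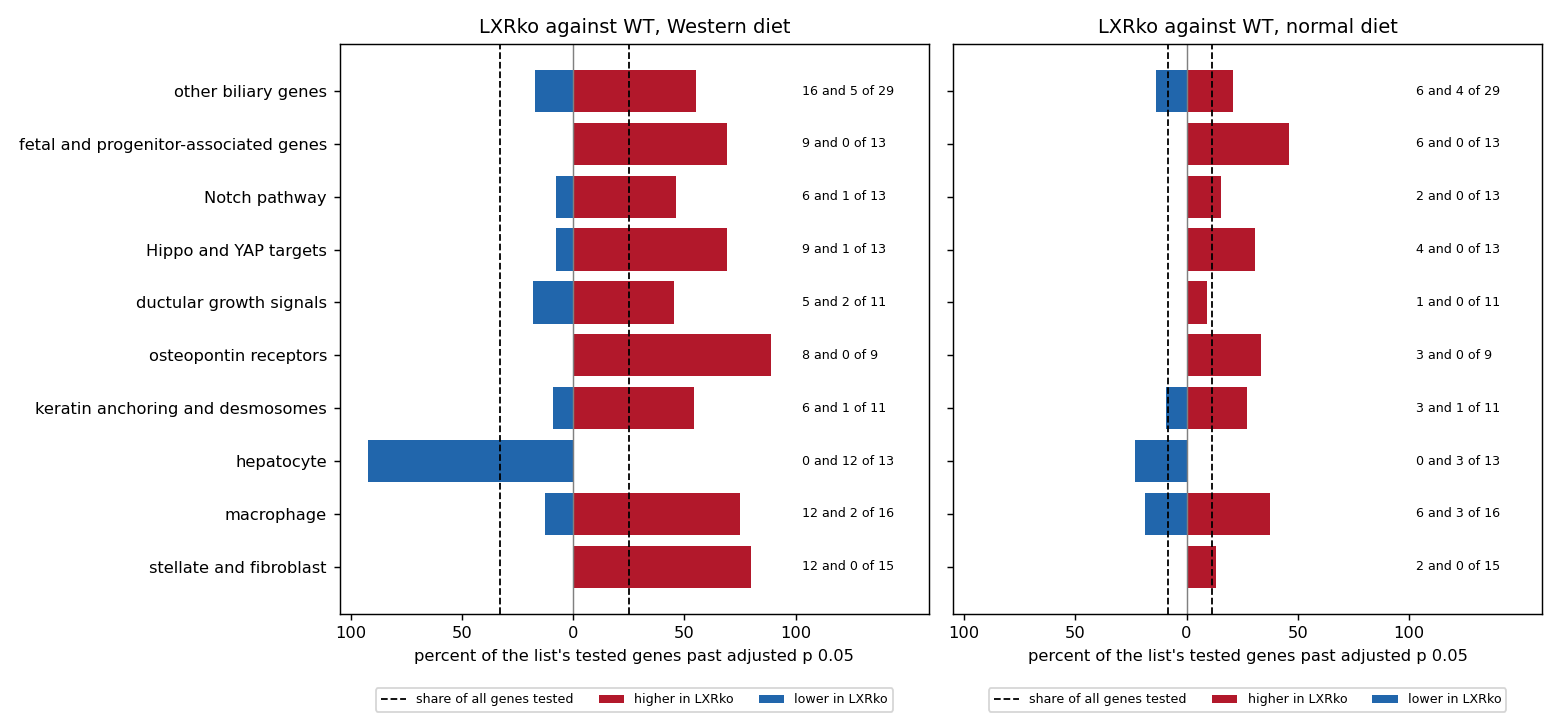
Percent of the tested genes of each list that were higher (right of 0) or lower (left of 0) in LXRko than in WT livers at an adjusted p under 0.05, on Western diet (left panel) and normal diet (right panel). Dashed lines mark the same shares among all genes, 25% and 32.7% on Western diet and 11.3% and 8.38% on normal diet, and the numbers at right give genes higher, genes lower and genes tested. Of the 12 hepatocyte genes lower on Western diet, 3 were at the ceiling of the scanner.

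Markers of other liver cells moved in the same comparison. Of 13 hepatocyte genes 12 were called lower and 0 higher in LXRko livers on Western diet, led by G6pc at -2.85 ± 0.32. Alb and Fgb were saturated on all arrays of both groups and Apoa2 on nearly all, so their sign follows the scaling and shows no direction. Of the 6 hepatocyte genes saturated on none of the 20 arrays 5 fell, and their summed relative signal was 204 to 302 in LXRko mice (median 257) and at least 455 in WT mice (median 480). Of 16 macrophage genes 12 rose and 2 fell. Without Mmp12, which passed the filter on dim probes only through LXRko mice on Western diet, 11 of 15 rose. Gpnmb, known from macrophages that take up lipid, rose by 11.46 ± 0.87 with 1 WT array well above background. Cd5l and Clec4f, genes of resident Kupffer cells, were at -8.56 ± 0.38 and -8.1 ± 0.84. Both were also lower in LXRko livers on normal diet, at -6.61 ± 0.38 and -3.88 ± 0.84. The summed signal of the list was 443 to 555 in LXRko mice against 71.7 to 183 in WT mice. Lyz2 was saturated on all 5 LXRko arrays, and without it the sums were 287 to 383 against 54.6 to 146. Of 15 stellate and fibroblast genes 12 rose and 0 fell, with Col1a1 at 5.36 ± 0.47. Without Lox, which also passed the filter only through LXRko mice on Western diet, 11 of 14 rose. The sums of this list were 110 to 244 in LXRko mice against 18.5 to 66.8 in WT mice. Of 10 genes of dividing cells 7 rose, with Mki67 at 2.57 ± 0.40, or 5 of 8 without Bub1 and Aurkb, which passed the filter only through LXRko mice on Western diet. On normal diet all 10 rose in LXRko livers. Of these, 5 (Top2a, Ccnb1, Cdk1, Bub1 and Aurkb) were well above background on no WT array of that diet, so their differences have no measured size. Neutrophil genes had 6 of 7 higher and mesothelial genes 3 of 6, or 3 of 4 and 2 of 4 without genes that passed the filter on dim probes only through LXRko mice on Western diet. B cell genes had 1 of 4 higher with 2 lower, as did red cell genes. The part of these shifts in the levels of the 10 genes was not tested.

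The LXRko mice on Western diet also differed among themselves, with the same mice highest and lowest for most genes. Among the 7 genes that were never saturated, mouse 2 had the highest level in 7 and mouse 4 the lowest in 6, with Sox9 lowest in mouse 1. The highest over the lowest mouse was 2.62-fold for Sox9 and 4.34-fold for Krt19. In WT mice on Western diet no mouse was highest in more than 3 of the 7, and Cd24a ranged by 1.08-fold. The replicate numbers are names only, so they tie no mouse of one group to a mouse of another.

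Over the 20 arrays, which fall into the 4 groups, the genes closest in log2 level to each of the 10 were listed as a description. Krt7 was closest to Cftr (Pearson r = 0.975), which was well above background only in LXRko mice on Western diet, so that value sets this group against background. Krt19 was closest to Sobp (0.977), Cd24a to Lama5 (0.986), Epcam to Sftpd (0.961), Prom1 to Crtap (0.975) and Spp1 to Cav2 (0.971). Sox9 was closest to the unnamed transcript 4930579K19Rik (0.91), with Hey1, a Notch target, at 0.906. Krt23 was closest to Dync2li1 (0.916), and Krt8 to Arhgef5 (0.95). Krt18 had the weakest best match, Pelp1 (0.855).

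Arrays shared slides across groups, so differences could be read within a slide. LXRko and WT mice on Western diet met on 4 slides, and on each of the 4 the differences of Krt7, Krt19, Sox9, Spp1, Prom1, Cd24a and Epcam were positive, for example 2.08 to 3.15 for Krt7 and 2.96 to 4.39 for Cd24a. Krt8 was positive on 3 of 4. On normal diet Cd24a and Epcam were positive on 4 of 4 slides. LXRko mice on the 2 diets met on 5 slides, where all 10 genes were positive throughout.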

How the data were processed

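The authors scanned 20 single-colour (Cy3) Agilent whole-mouse arrays and, per the file headers, extracted them with Feature Extraction 9.5.3.1 and deposited a processed signal, an intensity after background subtraction and detrending in which the dimmest spots carry a surrogate value. Probe positions are on mm8. The deposited series matrix holds log2 values of 24493 probes, used here as an alternative, and its column medians ran from 7.734 to 7.783. Its scale is log2, no ratio direction applies, and how its probes were chosen is not given in the sources used here. The submitters' processing notes name Agilent Feature Extraction 9.5 and limma.

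From the intensities, 43379 non-control spots per array were averaged by probe after leaving out 105 to 270 outlier spots, divided by the 75th percentile of the array and taken to log2. Probes were named through RefSeq accession, symbol or synonym (GRCm38.p6), and the probe with the highest mean stood for a gene. The filter on dim probes asked for 4 arrays of any 1 group with that probe well above background, which left 17552 genes. A linear model of the 4 group means was fitted in R 4.3.3 with limma 3.58.1, using lmFit and then eBayes (residual degrees of freedom 16, prior 2.23), with two-sided tests and Benjamini-Hochberg adjustment over all genes within each of 5 comparisons. The design text gives 5 mice per group. The number of arrays limits the precision. A probe saturated, or not well above background, on all 5 arrays of a group gives only a bound, written as at least N-fold. The 10 genes, 15 lists and named genes were chosen with earlier results of these data known. All 10 genes are named, and of each list up to 4 genes with the largest called difference on Western diet between genotypes and up to 2 in other comparisons. Alb, Fgb, Apoa2, Sctr and Cftr lie outside that rule and were chosen after their values were seen. Alternatives covered scaling, background, the series matrix, filters, probe choice, slide and replicate blocks and leaving out arrays, and raising dim values to a floor was added after seeing the data. The fit was tested on simulated data. Replicate numbers were checked for pairing: same-numbered mice deviated together with correlations from -0.378 to 0.487, not all over 0.1 in any comparison, so they were not used as pairs. Figures were drawn with matplotlib 3.10.9.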

Additional observations from a re-analysis of the deposited data

Results flagged for a closer look

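The response to Western diet differed between LXRko and WT livers by the test of the difference itself in 7 of the 10 genes. The interaction was 2.01 for Krt7, 2.01 for Krt19, 1.56 for Sox9, 3.66 for Prom1, 2.34 for Cd24a and 1.41 for Epcam, each larger in LXRko livers. For Krt23 it was -1.78, larger in WT livers. With 1 array left out in turn, the call was lost in 14 of 20 cases for Sox9, 12 for Krt23 and 9 for Epcam, and it was lost under 5, 4 and 5 of 10 alternatives. Krt19 lost its call under 1 alternative, and Prom1 was at background in WT mice on normal diet. The tests stand in the results above.

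In the group of WT mice on Western diet, mouse 2 lay far from the other 4 in Spp1, at a log2 level of 7.17, and in Epcam, at -2.02. The gap to the nearest mouse took 0.881 of the range of the group for Spp1 and 0.734 for Epcam. These were 2 of 40 groups examined in this way, and about 1 in 20 groups is set apart by chance.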

How the results depend on the processing

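In LXRko against WT livers on Western diet, 7 to 9 of the 10 genes rose and 1 fell under the alternatives and with any 1 array left out. Krt18, near 0 or saturated, changed sign. On Western diet it was 0.4115 with quantile normalization, 0.1984 with normexp, 0.359 with the series matrix and -0.124 to 0.0827 with 1 array left out. On normal diet it was 0.0803 with quantile normalization, 0.0316 with the series matrix and -0.1029 to 0.0517 with 1 array left out. Its interaction was 0.3312, 0.3428 and 0.3274 with quantile normalization, normexp and the series matrix, 0.0144 with the slide block and -0.1114 to 0.0953 with 1 array left out. Near 0 as well, Krt8 on normal diet was -0.0127 with the slide block, Sox9 on normal diet 0.0083 with normexp and -0.329 to 0.2085 with 1 array left out, and Krt7 between diets in WT livers -0.0262 to 0.3067 with 1 array left out. The cause was not tested. Genes higher on normal diet numbered 1 with median scaling, 0 with normexp, 1 with the series matrix, 4 with the mean of all probes and 1 to 4 with 1 array left out, against 2. Between diets in WT livers 1 rose with normexp and 2 to 4 with 1 array left out, against 4. The interaction was positive for 3 with normexp, against 6, and negative for 0 with quantile normalization, normexp, no filter and the replicate block and for 0 to 1 with 1 array left out, against 1. Over all genes, normexp called 4302, 508, 3572, 146 and 1014 genes for genotype on Western and normal diet, diet in LXRko and WT livers and the interaction, against 10129, 3457, 8846, 1047 and 4839. Median scaling called 554 for diet in WT livers (66.2% higher, against 54.5%) and 3217 for the interaction, and leaving out 1 array gave 668 to 1127 for diet in WT livers. Of normexp calls 43.8% were higher for diet in WT livers and 62.7% for the interaction, against 54.5% and 46.7%. With the replicate block, in a design whose numbers do not pair the mice, the Krt23 interaction (-1.78) and the Sox9 interaction (1.56) were no longer called, and 10049 genes were called for genotype on Western diet. Dim signal limits Prom1 on normal diet, and saturation limits Krt18 and Spp1.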
